A study of Homo sapiens with 6 samples.

Results

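The genes described here are transcription factors of the AP-1 complex and other immediate early transcription regulators, chosen by symbol: FOS, FOSB, FOSL1, FOSL2, JUN, JUNB, JUND, EGR1, IER2 and KLF6. Of these 10 symbols, 9 were matched to a row of the deposited count table, among 12396 genes with an Ensembl ID; FOS was not analysed here. The 6 RNA-seq libraries came from JHH-4, a human hepatocellular carcinoma line that the labels call epithelial-like. The 3 miR372_3p libraries are of cells in which a plasmid with the primary transcript gave overexpression of hsa-miR-372-3p, and the 3 Control libraries are of cells with the genotype WT. The labels used here name neither a plasmid in the Control cells nor a time after transfection. The series calls the replicates technical, so each p-value sets a difference against the spread of these 6 libraries alone, which may be technical.

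AP-1 is a dimer of a JUN protein with a FOS protein, another JUN protein or a related leucine zipper protein. It binds the element TGAGTCA or TGACTCA (the TRE) or the related TGACGTCA (the CRE). Several of its genes are immediate early genes: growth factors and stress switch them on within minutes, through MAP kinases and the serum response factor, without new protein synthesis. JUN proteins can pair with each other, FOS proteins need a partner, and JUN activates its own promoter. In mouse liver, Jun is needed for regeneration and promotes the development of hepatocellular tumours.

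The microRNA acts through its seed, bases 2 to 8, shown in capitals in the RefSeq sequence (GRCh38.p14, chromosome 19, 53787931 to 53787953, plus strand), because the letters complementary to it are what was sought in the 3′ UTRs of these genes.
hsa-miR-372-3p: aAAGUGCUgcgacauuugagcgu
Among the 9 genes, 3 held at least the 6-base match GCACTT in the longest annotated 3′ UTR (GENCODE 29, GRCh38), and they are printed below with the match in capitals, since they are the only matches in the group.
KLF6: ttcagaatccaAGCACTTgatttgctggg
JUNB: aaaagaaacacGCACTTAgtctctaaaga
FOSL2: tacctttctggGCACTTttttttttttt
The KLF6 match pairs with bases 2 to 8 and lies at chr10:3777033-3777039 on the minus strand. The JUNB match pairs with bases 2 to 7 followed by an A and lies at chr19:12793211-12793217 on the plus strand. The FOSL2 match is the bare 6 bases at chr2:28416946-28416951 on the plus strand. FOSB, FOSL1, JUN, JUND, EGR1 and IER2 held none of these letters in that UTR. Of the 12192 genes with a 3′ UTR to search, 40.6% held at least the 6-base match, and 21.5% had the KLF6 type as their best.

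Promoters were taken from RefSeq (250 bases before to 50 after the start, GRCh38.p14), which matched 8 of the 9 genes, and both strands were searched for AP-1, serum response and EGR1 motifs. The 5 stretches below hold the AP-1, CRE and CArG matches found, in capitals, because these are the elements through which the factors are known to regulate one another and to answer growth signals.
JUN: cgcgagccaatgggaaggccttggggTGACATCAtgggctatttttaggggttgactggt
KLF6: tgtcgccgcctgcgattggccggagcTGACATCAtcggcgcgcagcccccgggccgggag
FOSL2: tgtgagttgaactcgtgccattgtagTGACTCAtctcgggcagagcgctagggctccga
JUND: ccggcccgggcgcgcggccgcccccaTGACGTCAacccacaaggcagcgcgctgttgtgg
EGR1: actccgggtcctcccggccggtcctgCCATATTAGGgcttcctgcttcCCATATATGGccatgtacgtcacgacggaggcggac
They lie at chr1:58784081-58784140 (JUN, minus strand), chr10:3785348-3785407 (KLF6, minus strand), chr2:28392836-28392894 (FOSL2, plus strand), chr19:18281789-18281848 (JUND, minus strand) and chr5:138465348-138465431 (EGR1, plus strand). JUN and KLF6 share TGACATCA, a variant of the TRE known from the JUN promoter, which 2.61% of 34943 promoters of the same length held, and 1.49% of the 14696 promoters of tested genes. The TRE was sought as TGANTCA, with any base in the middle, which is wider than the TRE itself. This wider pattern was in 7.72% of all promoters and 5.27% of those of tested genes, and the CRE in 1.84% and 2.74%. The CArG box, the serum response element's core, was in 1.30% of all promoters and 1.14% of those of tested genes. The EGR1 motif GCGNGGGCG, in 9.41% of all promoters and 14.2% of those of tested genes, was found in the EGR1 window and in that of KLF6. In KLF6 it overlapped a GC box (GGGCGG), which 44.9% of all promoters and 65.2% of those of tested genes held. The FOSB, JUNB and IER2 windows held none of the AP-1, CRE, CArG and EGR1 motifs. A match is a description of letters and not of binding.

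Library totals over genes with an ID ran from 51072581 to 60070397 counts in miR372_3p and from 46851245 to 47890069 in Control; counts were scaled to CPM, counts per 1000000 of the TMM-scaled library. Control replicate 3 stood apart from the other Control libraries on the second principal component (10.2% of the variance), and without it 5 of the 9 genes described here rose and 1 fell, as with it. Of the 20 epithelial and hepatocyte markers sought, 8 were measured, of which 6 rose and 2 fell. KRT8, KRT18 and KRT19, keratins of simple epithelia, were among the 8 measured, and their directions are not given here. The albumin gene ALB was not analysed here. The summed level of all 8 measured markers was 6315 to 6563 CPM in miR372_3p and 3452 to 3552 CPM in Control. Of 17 markers of blood, endothelial and stromal cells, 6 were measured and 3 of these rose (COL1A1, PDGFRA and PDGFRB), with sums of 215 to 229 CPM in miR372_3p and 138 to 159 CPM in Control; their part in the results below was not tested.

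With miR-372-3p overexpression, 5 of the 9 measured genes rose, 1 fell and 3 did not pass the test (edgeR quasi-likelihood test, two-sided, Benjamini-Hochberg adjusted p under 0.05). FOSB rose 3.23-fold, KLF6 2.09-fold, IER2 1.49-fold, JUND 1.41-fold and FOSL2 1.35-fold. JUN fell 1.40-fold. FOSL1, JUNB and EGR1 did not pass. Over all 12396 genes, 26.8% rose and 27.7% fell, 54.5% in all, so that 6 called of 9 is near the share over the table. The 3 miR372_3p libraries lay wholly above the 3 Control libraries for 5 of the 9 genes (30.7% of all genes) and wholly below them for 1 (31.4%), which makes 6 without overlap, against 62.2% over all genes. The median log2 fold change of the 9 genes was 0.44, against 0.0013 over all genes. In this bulk RNA, fewer cells with a transcript and less transcript in each cell cannot be told apart.

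**Figure D1:**
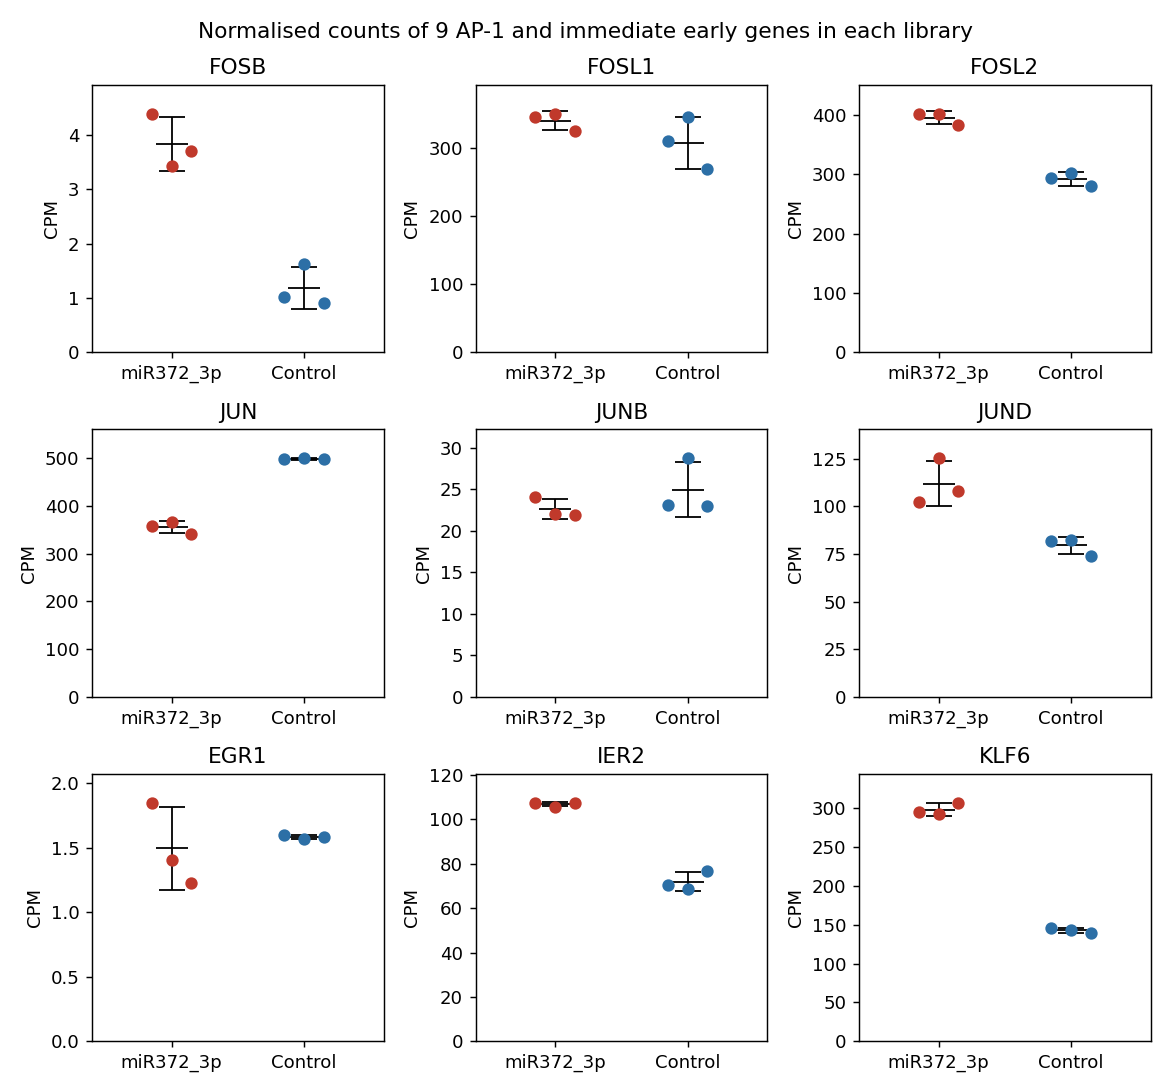
Normalised counts (CPM, vertical axis from 0) of the 9 measured genes in the 3 miR372_3p libraries (red) and the 3 Control libraries (blue); points are libraries, and the bars give mean and SD. The groups do not overlap for FOSB, FOSL2, JUN, JUND, IER2 and KLF6, with JUN the one gene lower in miR372_3p.

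JUN, which codes for the founding member of the JUN proteins (ENSG00000177606, chromosome 1, 58780788 to 58784327, minus strand, GRCh38), had 358, 366 and 341 CPM in miR372_3p replicates 1 to 3, against 498, 500 and 498 CPM in Control replicates 1 to 3. All miR372_3p libraries lay below all Control libraries, and the Control libraries hardly differed from each other. JUN thus fell by 0.49 on the log2 scale (standard error 0.0365, 95% interval −0.57 to −0.41, edgeR adjusted p = 3.39e-06). A fall of this size or more was seen in 11.1% of all genes. JUN was the one measured gene of the group that fell. Its 3′ UTR held no match to the microRNA's seed, and its promoter holds the TGACATCA printed above.

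JUND codes for the JUN protein that is usually present in resting cells (ENSG00000130522, chromosome 19, 18279760 to 18281622, minus strand). It was at 102, 125 and 108 CPM in the miR372_3p libraries and at 81.8, 82.6 and 74.2 CPM in the Control libraries, with no overlap. JUND rose by 0.49 on the log2 scale (standard error 0.0748, 95% interval 0.33 to 0.66, edgeR adjusted p = 0.000374), about as far as JUN fell. The JUND promoter holds the CRE shown above.

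JUNB, whose protein can oppose JUN at some promoters (ENSG00000171223, chromosome 19, 12791496 to 12793315, plus strand), did not pass. It was at 24.0, 22.04 and 21.9 CPM in miR372_3p and at 23.1, 28.8 and 23.0 CPM in Control. The groups overlapped, and the highest value was that of Control replicate 2. Its log2 fold change was −0.14 (95% interval −0.35 to 0.07, edgeR adjusted p = 0.224). The overlapping gene HOOK2 on the other strand shares 259 bases of exon with JUNB (14.2% of JUNB's exon bases), and the library kit does not mark strand. HOOK2 was at 30.9 CPM in miR372_3p and 28.1 CPM in Control and did not pass (log2 fold change 0.14, edgeR adjusted p = 0.0778). Reads of both genes in the shared bases cannot be told apart, and their part in the JUNB counts was not tested.

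FOSB codes for a FOS family protein with a short splice form that lacks part of its activation domain; the counts do not separate the forms (ENSG00000125740, chromosome 19, 45467995 to 45475179, plus strand). It had 263, 173 and 207 counts in miR372_3p replicates 1 to 3 and 48, 76 and 44 counts in Control replicates 1 to 3. Scaled for depth these were 4.39, 3.42 and 3.69 CPM in miR372_3p and 1.02, 1.63 and 0.906 CPM in Control. Per length, 9.75% of genes in miR372_3p and 2.21% in Control had a lower FPKM than FOSB, and every miR372_3p library was higher than every Control library. FOSB rose by 1.69 on the log2 scale (standard error 0.240, 95% interval 1.16 to 2.23, edgeR adjusted p = 0.000242). This change lay above that of 99.1% of all genes. ERCC1, a gene on the other strand that overlaps FOSB without shared exon bases, did not pass (log2 fold change −0.12, edgeR adjusted p = 0.0928).

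FOSL1 codes for FRA1, a FOS protein that lacks the activation domain of FOS and is often abundant in carcinoma lines (ENSG00000175592, chromosome 11, 65892049 to 65900573, minus strand). It was at 345, 351 and 325 CPM in miR372_3p and at 310, 345 and 269 CPM in Control. The highest Control library reached the range of the miR372_3p libraries, and FOSL1 did not pass (log2 fold change 0.14, interval −0.03 to 0.32, edgeR adjusted p = 0.140). FOSL1 passed when Control replicate 2 was left out (log2 fold change 0.24, edgeR adjusted p = 0.00799), while leaving out Control replicate 3 gave 0.053 (edgeR adjusted p = 0.378). The authors' deposited table gives it a log2 fold change of 0.14 and an unadjusted p of 0.0450.

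FOSL2 codes for FRA2, which has a structure like that of FRA1 (ENSG00000075426, chromosome 2, 28392448 to 28417312, plus strand). It was at 403, 402 and 383 CPM in miR372_3p and at 294, 303 and 280 CPM in Control. The lowest miR372_3p library stood well above the highest Control library. On the log2 scale FOSL2 rose by 0.44 (standard error 0.0404, 95% interval 0.35 to 0.53, edgeR adjusted p = 1.47e-05). Its 6-base match to the seed, printed above, lies near the end of a 3′ UTR of 4864 bases.

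**Figure D2:**
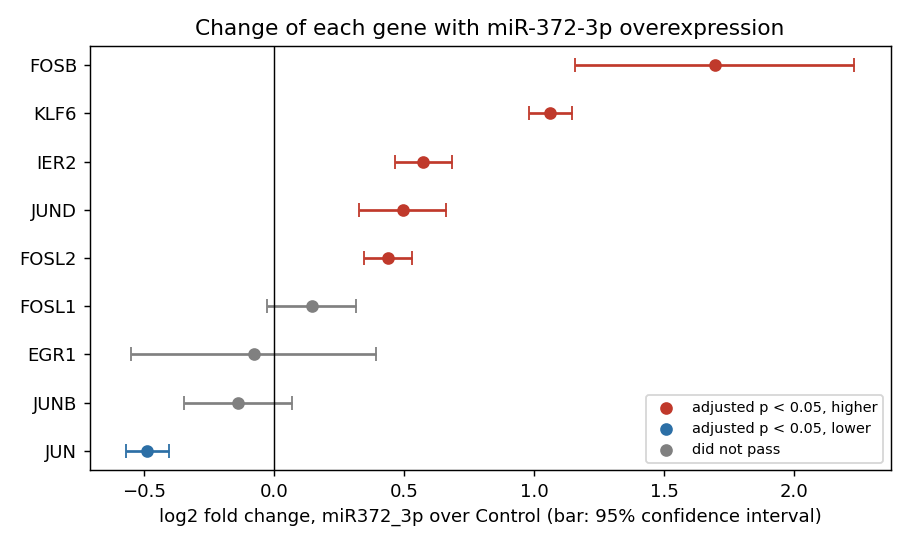
Log2 fold change of miR372_3p over Control (horizontal axis) for the 9 measured genes, with 95% confidence intervals from the edgeR fit of 3 libraries a group; red and blue mark genes past an adjusted p of 0.05, grey those that did not pass. FOSB (1.69) and KLF6 (1.06) lie farthest to the right and JUN (−0.49) is the one blue point, while the intervals of FOSL1, EGR1 and JUNB include 0.

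EGR1 codes for a zinc finger factor that serum induces through CArG boxes such as those shown above (ENSG00000120738, chromosome 5, 138465490 to 138469315, plus strand). It had 111, 71 and 69 counts in miR372_3p and 75, 73 and 77 counts in Control. That is 1.85, 1.40 and 1.23 CPM in miR372_3p against 1.597, 1.57 and 1.59 CPM in Control. The miR372_3p libraries lay on both sides of the Control libraries. Its log2 fold change was −0.08 (95% interval −0.55 to 0.39, edgeR adjusted p = 0.771), so a change in either direction within that interval remains possible. The sign turned to 0.043 without miR372_3p replicate 3.

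IER2 codes for a nuclear immediate early protein (ENSG00000160888, chromosome 19, 13150415 to 13154908, plus strand). It was at 107, 106 and 108 CPM in miR372_3p and at 70.5, 68.5 and 76.6 CPM in Control, with no overlap. IER2 rose by 0.57 on the log2 scale (standard error 0.0492, 95% interval 0.46 to 0.68, edgeR adjusted p = 8.83e-06). Of its exon bases, 946 (30.8%) are shared with the antisense gene AC011446.2, which was not analysed here, so reads of both cannot be told apart.

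KLF6 codes for a Krüppel-like zinc finger factor that binds GC-rich promoter elements and has been described as a tumour suppressor (ENSG00000067082, chromosome 10, 3775996 to 3785281, minus strand). It had 17643, 14746 and 17171 counts in miR372_3p and 6822, 6668 and 6757 counts in Control. Scaled for depth these were 294, 292 and 306 CPM in miR372_3p and 145, 143 and 139 CPM in Control. The groups stood far apart, with an SD of 7.86 CPM in miR372_3p and 3.11 CPM in Control (n = 3 each). KLF6 rose by 1.06 on the log2 scale (standard error 0.0372, 95% interval 0.98 to 1.14, edgeR adjusted p = 3.12e-08). KLF6 and FOSB were the only measured genes of the group to rise at least 2-fold, as 2.82% of all genes did; 0 of the 9 fell at least 2-fold, against 3.2% of all genes. KLF6 is also the one measured gene of the group whose 3′ UTR matches the whole seed, and it rose. Of the 2618 genes whose best match was of this type, 27.2% rose and 29.7% fell, while 26.7% of genes with no match rose and 26.2% fell. Of the 494 genes whose match covers the whole seed and is followed by an A, a type that none of the 9 genes held, 21.1% rose and 44.7% fell.

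Levels of different genes were compared on the authors' FPKM, which are scaled to gene length. In miR372_3p the order was FOSL1 (204 ± 7.06 FPKM; SD, n = 3 here and below), JUN (89.4 ± 3.08), KLF6 (59.1 ± 1.61), JUND (53.5 ± 5.07), FOSL2 (53.1 ± 1.72), IER2 (33.2 ± 0.395), JUNB (11.1 ± 0.704), FOSB (0.956 ± 0.179) and EGR1 (0.422 ± 0.0968). In Control it was FOSL1 (184 ± 21.6 FPKM), JUN (125 ± 1.19), FOSL2 (38.8 ± 1.03), JUND (37.9 ± 1.81), KLF6 (28.0 ± 0.440), IER2 (22.2 ± 1.56), JUNB (12.2 ± 1.47), EGR1 (0.444 ± 0.00743) and FOSB (0.296 ± 0.0748). FOSL1 and JUN led in both groups. FOSL2 and JUND, neighbours in both orders, did not differ beyond their spread, nor did KLF6 and JUND in miR372_3p. KLF6 stood below FOSL2 and JUND in every Control library and above FOSL2 in every miR372_3p library. At the low end, FOSB stood above EGR1 in every miR372_3p library and below it in every Control library. In Control replicate 2 the gap was small, 0.376 FPKM for FOSB and 0.436 FPKM for EGR1. There FOSB had 76 counts and EGR1 73, so this order rests on the scaling to length.

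**Figure D3:**
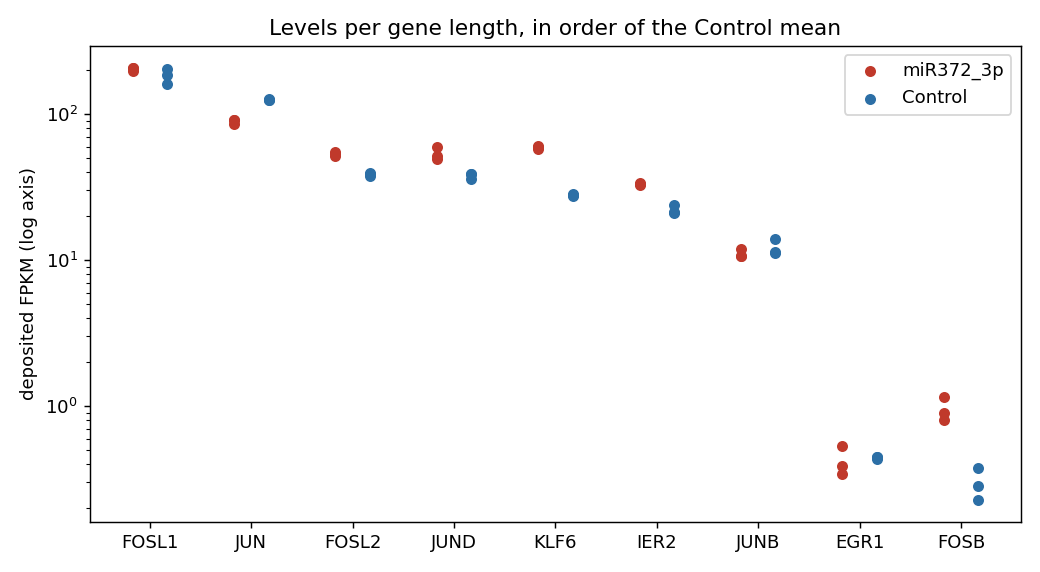
Deposited FPKM (log axis) of the 9 measured genes in each miR372_3p library (red, left of each pair) and each Control library (blue, right), ordered by the Control mean. FOSL1 and JUN are the highest in both groups, while FOSB and EGR1 lie near or below 1 FPKM.

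The make-up of both families, with FOS left out of the FOS family, differed between the groups. JUN made up 59.8, 56.6 and 57.9% of the summed FPKM of JUN, JUNB and JUND in miR372_3p replicates 1 to 3, against 71.3, 70.1 and 72.8% in Control replicates 1 to 3. JUND made up 32.4, 36.8 and 34.9% in miR372_3p, against 22.3, 22.01 and 20.6% in Control. The ratio of JUN to JUND was 1.68 ± 0.153 in miR372_3p and 3.31 ± 0.193 in Control (SD, n = 3 each), and the libraries of the groups did not overlap. The JUN family sum was 154 ± 6.41 FPKM in miR372_3p and 175 ± 1.64 FPKM in Control. In the FOS family, FOSL1 made up 79.1 ± 0.293% of the summed FPKM of FOSB, FOSL1 and FOSL2 in miR372_3p and 82.4 ± 1.32% in Control. FOSB, the gene with the largest fold change, was 0.370 ± 0.0642% of that sum in miR372_3p and 0.131 ± 0.0200% in Control. These shares describe RNA of the measured genes and were not tested.

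**Figure D4:**
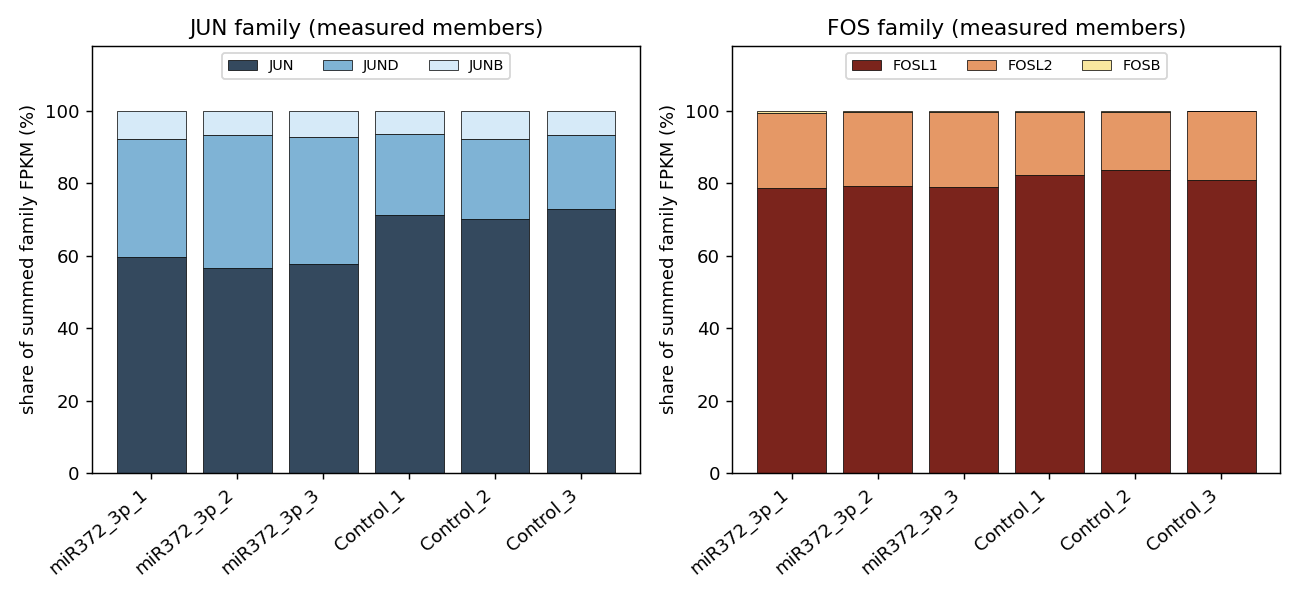
Share (%) of each measured gene in the summed FPKM of the JUN family (left) and FOS family (right), one bar per library, miR372_3p before Control. JUN holds 56.6 to 59.8% in miR372_3p and 70.1 to 72.8% in Control. FOSL1 has the largest share among FOSB, FOSL1 and FOSL2 in all 6 libraries, with FOS not analysed.

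Within groups, the size of the spread differed between the genes, while in Control its direction was shared by most of them. In Control, replicate 2 had the highest CPM of its group for 6 of the 9 genes, and replicate 3 the lowest for 6. The median deviation of the 9 genes from the group's mean log2 CPM was 0.053 in Control replicate 2 and −0.060 in Control replicate 3. The like counts over all genes were not computed, so a shift of whole libraries was not tested. The coefficient of variation of CPM in Control was 0.300% for JUN, 0.978% for EGR1, 12.4% for FOSL1, 13.1% for JUNB and 32.8% for FOSB. In miR372_3p this coefficient was 3.60% for JUN, 3.96% for FOSL1, 5.24% for JUNB and 12.96% for FOSB, and highest for EGR1 (21.4%). These values rest on unlike depth: Control counts were 23304 to 24159 for JUN, 73 to 77 for EGR1 and 44 to 76 for FOSB. At these depths the Control coefficients of EGR1 and JUN are lower than sampling of counts alone gives on average. They are therefore no measure of how steady these genes are. With 3 libraries a group, the part that sampling of counts has in the other values was not tested. The 3 genes outside the group whose log2 CPM over the 6 libraries was most like that of JUN were ACVR1 (Pearson r = 0.9995), UBA7 (r = 0.9994) and FBRS (r = 0.9992), which all fell; with 2 groups of 3 libraries such values mainly follow the difference between groups.

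Of 43 other immediate early genes listed, 36 were measured, and 15 of these rose while 8 fell (background 26.8% and 27.7%; median log2 fold change 0.07). DUSP1, which dephosphorylates MAP kinases, rose 2.66-fold, to 109 ± 3.90 CPM in miR372_3p against 41.1 ± 1.72 CPM in Control (SD, n = 3 each; edgeR adjusted p = 3.50e-08). The kinase gene SGK1 (log2 fold change 1.20 ± 0.0766, standard error here and below) and the growth arrest gene GADD45A (0.90 ± 0.0476) followed. ID1 (−0.84 ± 0.0485) and ID3 (−0.39 ± 0.0424), inhibitors of basic helix-loop-helix factors, and SERTAD1 (−0.44 ± 0.101) fell most. NR4A1 and NR4A2, nuclear receptors that are immediate early genes like EGR1, did not pass and lay at 2.14 and 1.05 CPM in miR372_3p and 2.44 and 1.32 CPM in Control. Without miR372_3p replicate 1, 5 of these genes fell.

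Among 23 measured of 28 listed bZIP genes whose proteins can pair with AP-1 proteins or share their sites, 10 rose and 6 fell (69.6% called, against 54.5% of all genes; median 0.06). The small MAF genes MAFK (0.74 ± 0.0574) and MAFG (0.73 ± 0.0440), and NFE2L3 (0.69 ± 0.0426), which codes for a partner of small MAF proteins, rose most. ATF6B (−1.14 ± 0.0667), which codes for a membrane-bound factor of the endoplasmic reticulum, CEBPD (−0.97 ± 0.0698) and ATF5 (−0.49 ± 0.0853) fell most. JDP2, whose protein pairs with JUN and represses AP-1 sites, rose (0.61 ± 0.100). ATF2, whose protein binds the TGACATCA of the JUN promoter together with JUN, was at 40.7 ± 0.523 CPM in miR372_3p and 41.5 ± 1.01 CPM in Control and did not pass (edgeR adjusted p = 0.601).

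Of 31 measured genes of the MAP kinase and serum response factor inputs (32 listed), 8 rose and 8 fell (median 0.08). The 51.6% called is near the 54.5% of all genes. MAPK8, coding for the JUN N-terminal kinase JNK1, rose to 41.9 ± 1.82 CPM in miR372_3p against 24.2 ± 0.859 CPM in Control (0.79 ± 0.0547, edgeR adjusted p = 2.14e-06). MAP3K1, a kinase upstream of JNK (0.76 ± 0.0449), and ELK3, a partner of the serum response factor (0.66 ± 0.0438), also rose. The ribosomal S6 kinase genes RPS6KA1 (−0.78 ± 0.0434) and RPS6KA3 (−0.70 ± 0.0503), whose kinases act downstream of ERK, and MAP3K5 (−0.76 ± 0.0861), coding for ASK1, fell. MAPK3, coding for the kinase ERK1, fell by less (−0.26 ± 0.0783). SRF itself did not pass (0.14 ± 0.0570, edgeR adjusted p = 0.0573). The count of genes that rose was 5 without miR372_3p replicate 1 and also 5 without Control replicate 1.

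All 21 listed genes for turnover and cofactors of AP-1 and EGR1 proteins were measured, and 9 rose while 2 fell (median 0.10). Here 52.4% were called in either direction, again near the 54.5% of all genes. By direction the list was less even than the table, where 26.8% of all genes rose and 27.7% fell. FBXW7 (0.83 ± 0.0738) and ITCH (0.44 ± 0.0402), which code for ubiquitin ligases that target JUN, rose, as did NAB1 (0.41 ± 0.0470), a corepressor of EGR factors. CSNK2A1, coding for a catalytic subunit of casein kinase 2, fell (−0.26 ± 0.0522). The number that fell was 1 without any one of the miR372_3p replicates and 4 without Control replicate 3.

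Of 46 genes listed as published AP-1 targets, 38 were measured, and 13 rose while 13 fell (68.4% called, against 54.5% of all genes; median 0.08). EDN1, coding for endothelin-1, rose 5.55-fold, to 33.3 ± 1.55 CPM in miR372_3p against 6.00 ± 0.601 CPM in Control (edgeR adjusted p = 3.05e-08). GJA1, coding for connexin 43 (1.56 ± 0.0476), and the stromelysin gene MMP3 (1.42 ± 0.0534) also rose. S100A2, coding for a calcium-binding protein (−1.37 ± 0.192), and the matrilysin gene MMP7 (−1.22 ± 0.0407) fell. Matrix metalloproteinases went both ways: MMP3 and MMP14 (0.54 ± 0.0710) rose, while MMP7 and the interstitial collagenase gene MMP1 (−1.02 ± 0.0856) fell. CCND1, coding for cyclin D1, rose (0.70 ± 0.0332), and CD44, a cell surface receptor of hyaluronan, fell (−0.74 ± 0.0455).

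**Figure D5:**
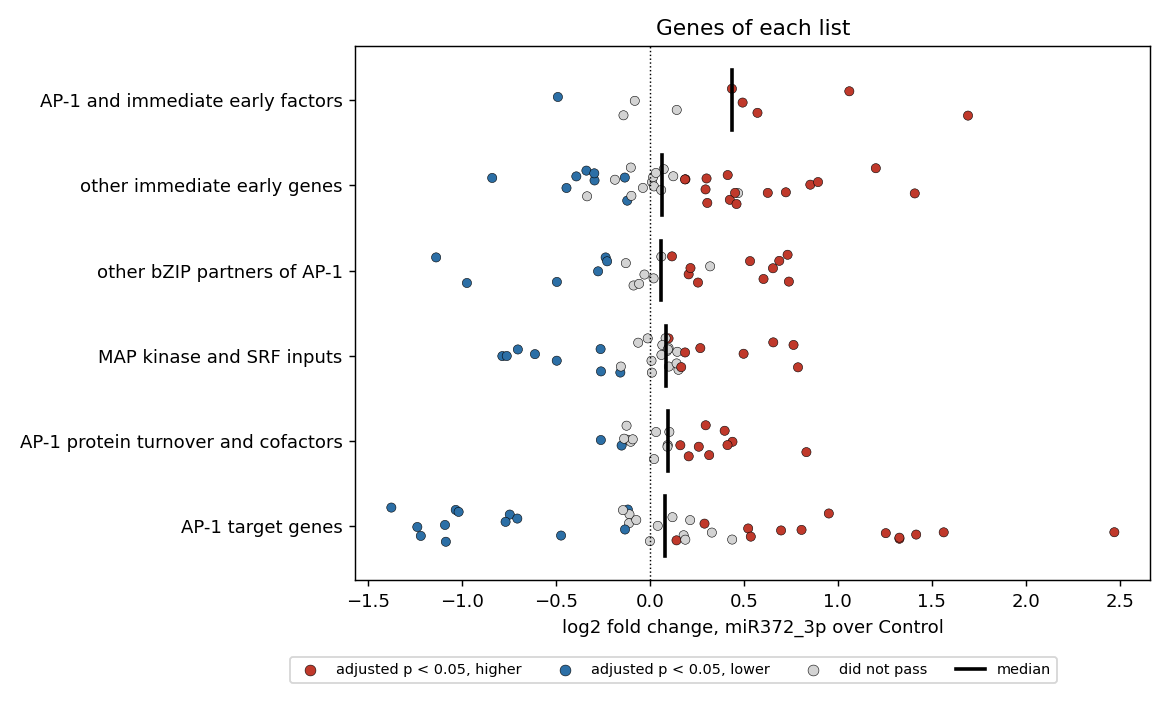
Log2 fold change of miR372_3p over Control (horizontal axis) of each measured gene in the 9 AP-1 and immediate early factors and in the 5 related lists; each point is a gene, coloured by the edgeR call, and the black line is the list's median. The median of the 9 genes is 0.44, and those of the other lists run from 0.06 to 0.10, with genes on both sides of 0 in all of them.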

How the data were processed

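The 6 JHH-4 libraries (3 miR372_3p and 3 Control, grouped and numbered by their titles) were each prepared from 1 µg of total RNA with the NEBNext Ultra RNA kit, per the labels' protocols; this kit does not mark strand. The deposited table gives, per the file headers, whole-number read counts and FPKM of each library, and the authors' p-value and log2 fold change. The submitters' processing notes name HISAT2 2.0.4, StringTie 2.2.1, DESeq2 1.38.3 and GRCh38; which tool gave the counts, and with which annotation, is not stated in the labels. The 1610 rows with no gene ID (2.64 to 3.63% of counts) entered neither library sizes nor tests. No row with an ID has fewer than 208 counts in all.

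The test was that of edgeR 4.0.16 under R 4.3.3 (TMM, quasi-likelihood F-test, no block, adjusted over 12396 genes); filterByExpr removed 0 genes. The test was first run on simulated data in which 200 genes changed, fewer than were called here. In that run it recovered 52% of 1.25-fold, 80% of 1.5-fold and 98% of 2-fold changes, with 14 false calls. The deposited FPKM were used for levels only, without a test. No pair of replicates agreed within sampling noise (chi-square over its degrees of freedom 6.86 to 38.6). Alternatives were DESeq2 1.42.0, other scalings and filters, a replicate block, and leaving out each library. Members and lists were chosen with earlier results of these data known. Besides the members, the 3 genes with the largest rise and the 3 with the largest fall in each list, and the 3 most like JUN, were named by rule, except 2 that are not reported here; any other gene named beside a list was picked with its values in view. Likeness to FOS was not computed.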

Additional observations from a re-analysis of the deposited data

How the results depend on the processing

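Under 14 alternatives, FOSB, FOSL2, JUND, IER2 and KLF6 stayed higher and JUN lower past the threshold. Their log2 fold changes ran from 1.53 to 2.00 (FOSB), 0.41 to 0.47 (FOSL2), 0.40 to 0.55 (JUND), 0.54 to 0.62 (IER2), 1.04 to 1.07 (KLF6) and −0.51 to −0.46 (JUN). FOSL1 ran from 0.053 to 0.24 (adjusted p up to 0.378, without Control replicate 3). It passed with the replicate number as a block (0.15, adjusted p = 0.0271) and without Control replicate 2 (0.24, adjusted p = 0.00799), so the number of genes that rose was 5 to 6 on leaving out 1 library; the cause was not tested. EGR1, at a mean under 2 CPM, was left out by a minimum of 2 CPM, its log2 fold change ran from −0.27 to 0.043 on leaving out 1 library, and its direction turned without miR372_3p replicate 3 (0.043, adjusted p = 0.891). The replicate block gave 3381 genes higher and 3428 lower over all genes, against 3323 and 3438 without it. Same-numbered libraries did not deviate together (r = −0.136, −0.0517 and 0.103 for numbers 1 to 3), not every library correlated best with its own number, and the labels name no shared batch, so the numbers were not taken as pairs. Leaving out 1 library gave 5 to 8 other immediate early genes lower, 5 to 11 MAP kinase and SRF inputs higher, and 1 to 4 turnover and cofactor genes lower. The 3 libraries a group, called technical, limit what the spread stands for, and counts of 44 to 263 limit FOSB and of 69 to 111 EGR1.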
